A study of Mus musculus with 4 samples.

Results

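The genes described here handle ATP and adenosine outside the cell and in its adenosine pool, in regulatory T cells whose Bmi1 gene, a subunit of Polycomb repressive complex 1, was targeted. The 8 genes were chosen by name: the ectoenzyme genes Entpd1 and Nt5e, the adenosine receptor genes Adora2a and Adora2b, the adenosine-consuming enzyme genes Ada and Adk, the surface peptidase gene Dpp4 and the ATP receptor gene P2rx7. A gene was followed where the platform annotation gave a transcript cluster, the array's unit of measurement, that one symbol alone. Of the 8 genes, 5 had such a cluster, 1 each: Entpd1, Nt5e, Ada, Adk and Dpp4, among 30491 named genes in all. P2rx7 lay on 1 cluster that the annotation also gives to the microRNA gene Mir8115, which lies inside P2rx7, so that cluster's signal belongs to neither gene alone. No cluster named here carried Adora2a or Adora2b, and the 2 genes are not analysed here.

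The samples were splenic CD4 cells of mice 7 to 8 weeks old, sorted by green fluorescence into 15000 to 40000 Foxp3-expressing cells per sample, and measured on 1-colour arrays. The arrays labelled KO, replicates 1 and 2, came from mice of the FOXP3-CRE strain B6-Tg(Foxp3EGFP-cre)1cJbs/J combined with BMI1-flox on C57BL/6, and the arrays labelled WT, replicates 1 and 3, from the same FOXP3-CRE strain with C57BL/6 alone. Both groups therefore carried the Cre transgene, which the regulatory sequences of Foxp3 drive together with the green fluorescent protein, and the label does not say how many Bmi1 alleles were floxed. The titles and the treatment field say that the cells were unstimulated, but the series text tells of 24 h under antibodies to CD3 and CD28, and which of them holds for these arrays could not be settled. The labels do not tie the samples to separate animals. The p-values thus cover the spread between these arrays, which may be technical, and so few arrays limit how precise any value can be.

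ATP released by stressed or activated cells acts on P2 receptors, among which P2rx7 is known for driving pore formation and death in T cells. Entpd1 (CD39) removes phosphates from ATP and ADP, and Nt5e (CD73) turns the resulting AMP into adenosine. Adenosine raises cyclic AMP through Adora2a and Adora2b and thereby restrains effector T cells, and mouse regulatory T cells are known to carry both ectoenzymes and to use them in suppression. Adenosine is removed by Ada, which deaminates it to inosine, by Adk, which phosphorylates it back to AMP inside the cell, and by uptake through nucleoside transporters. Dpp4 (CD26) cuts dipeptides from chemokines and other peptides, and in humans it also holds Ada at the cell surface.

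The promoter windows of the 2 ectoenzyme genes and of Ada are shown. These 3 had the largest absolute differences between KO and WT of the 5 measured members, though no member passed the test described below. The windows are from RefSeq, build GRCm38.p6, and run from 250 bases before to 50 bases after the annotated start, each in its gene's own direction. Of the 8 genes, 7 had at least 1 window, and 4 windows are printed. Capitals mark matches, on either strand, to GGGCGG (GC box), TGACG (core of a cyclic AMP response element), CCAAT (the site NF-Y binds), TGTGGT (Runx core) and GTAAACA (forkhead core).
Entpd1, upstream start, chr19:40612116-40612415, plus strand: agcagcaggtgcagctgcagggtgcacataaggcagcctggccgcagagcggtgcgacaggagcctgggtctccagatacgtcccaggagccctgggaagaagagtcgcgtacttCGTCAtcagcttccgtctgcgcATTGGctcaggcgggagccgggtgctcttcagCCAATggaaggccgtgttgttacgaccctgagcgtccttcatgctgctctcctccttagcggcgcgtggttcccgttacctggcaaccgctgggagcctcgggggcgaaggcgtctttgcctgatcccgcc
Entpd1, downstream start, chr19:40659520-40659819, plus strand: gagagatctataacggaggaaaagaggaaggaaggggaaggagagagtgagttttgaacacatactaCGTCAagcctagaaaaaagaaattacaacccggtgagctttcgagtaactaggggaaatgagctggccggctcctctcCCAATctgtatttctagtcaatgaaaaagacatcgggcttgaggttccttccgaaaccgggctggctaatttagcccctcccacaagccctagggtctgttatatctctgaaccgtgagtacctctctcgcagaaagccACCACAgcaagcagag
Nt5e, chr9:88327359-88327658, plus strand: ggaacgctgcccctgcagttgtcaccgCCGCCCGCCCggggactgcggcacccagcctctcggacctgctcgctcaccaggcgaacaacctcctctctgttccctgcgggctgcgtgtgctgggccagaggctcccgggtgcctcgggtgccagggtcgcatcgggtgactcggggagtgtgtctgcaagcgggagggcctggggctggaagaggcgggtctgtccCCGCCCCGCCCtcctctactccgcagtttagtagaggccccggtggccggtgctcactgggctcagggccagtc
Ada, chr2:163750190-163750489, minus strand: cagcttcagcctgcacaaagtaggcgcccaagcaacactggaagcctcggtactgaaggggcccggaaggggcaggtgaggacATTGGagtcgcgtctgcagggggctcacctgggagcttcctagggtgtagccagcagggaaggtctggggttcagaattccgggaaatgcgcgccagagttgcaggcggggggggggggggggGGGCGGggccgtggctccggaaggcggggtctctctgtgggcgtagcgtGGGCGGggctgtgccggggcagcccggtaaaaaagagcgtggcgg

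Positions are those of a match's leftmost base as printed, negative before the start. Both Entpd1 windows held 1 TGACG match, on the minus strand, at -135 from the upstream start and at -183 from the downstream start. They held 2 and 1 CCAAT matches, the downstream window held 1 TGTGGT match, and neither held GGGCGG. The Nt5e window held 4 GGGCGG matches on the minus strand, in 2 overlapping pairs beginning at -223 and -219 and at -24 and -19, and none of the other 4 motifs. The Ada window held 2 GGGCGG matches, at -44 and 6, and 1 CCAAT match. GTAAACA was in none of the 4 windows. Among the 32851 windows in the RefSeq table, 35.7% held GGGCGG, 20.8% TGACG, 37.4% CCAAT, 16.8% TGTGGT and 3.65% GTAAACA. A match is a string of letters only, and the arrays carry no measure of binding.

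The array medians over all clusters lay between 4.65 and 4.69 in KO and between 4.67 and 4.72 in WT (log2 level), and Pearson's r between arrays, across clusters, lay between 0.991 and 0.994. Bmi1, the targeted gene, read 9.58 and 9.91 in the arrays labelled KO, against 8.98 and 8.98 in the arrays labelled WT, that is, higher where the label says Bmi1 was targeted. Which exons its cluster covers and which were floxed is not given in the sources used here, so the directions that follow rest on the labels alone. The regulatory T cell markers Il2ra, Ctla4, Ikzf2, Tnfrsf18, Lrrc32 and Gpr83 all read above the median gene, with a mean log2 level of 13.04 and 12.93 in KO and 13.10 and 12.99 in WT. That mean holds 2 genes on opposite sides: Lrrc32 differed by -1.335 (SE 0.25, limma adjusted p 0.297) and Gpr83, a receptor that marks regulatory T cells, by 1.15 (SE 0.28, limma adjusted p 0.354), while the other 4 lay between -0.155 and 0.045. Foxp3 itself has no value of its own, since its cluster also carries the symbol Flicr. All 6 T cell markers, Cd3e, Cd3d, Cd3g, Cd4, Cd5 and Cd2, read above the median gene and higher in KO. Their mean log2 level was 15.83 and 15.76 in KO and 15.53 and 15.61 in WT. The arrays did not overlap for 5 of them, where 20.9% of all genes were separated with KO higher. Cd3e differed by 0.565 (SE 0.06, limma adjusted p 0.141), and the others by 0.095 to 0.265. Of the markers of other cells, 4 of 6 B cell, 5 of 6 monocyte and macrophage and 5 of 6 dendritic cell genes read below the median gene. Their mean log2 levels were 4.99 and 5.14 in KO against 5.05 and 5.23 in WT for B cells, 4.47 and 4.51 against 4.57 and 4.38 for monocytes and macrophages, and 4.19 and 4.13 against 4.25 and 4.22 for dendritic cells. Plasma cell markers averaged 6.94 and 6.82 in KO and 6.45 and 6.61 in WT. Of these 6 genes, 3 read above the median gene, and 5 were higher and 1 lower in KO. Jchain read 7.66 and 7.49 in KO against 6.62 and 6.47 in WT (difference 1.03, SE 0.13, limma adjusted p 0.205). Mzb1, below the median gene, differed by 0.395 (SE 0.10, limma adjusted p 0.354). Of the CD8 T cell markers, Cd8b1 was bright, at 10.71 and 11.26 in KO against 9.74 and 10.78 in WT, and Cd8a was dim, at 4.08 and 4.07 in KO against 4.12 and 4.23 in WT. Of the 4 NK cell markers, 3 read below the median gene. The other, Eomes, a T-box factor gene that some T cells express too, read 7.37 and 8.49 in KO against 6.80 and 6.91 in WT (difference 1.075, SE 0.37, limma adjusted p 0.438), highest in KO replicate 2. Both measured erythroid markers read below the median gene. The part that any of these cells had in the results was not tested.

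No member passed the test. Entpd1 and Dpp4 read lower and Ada higher in both arrays labelled KO, Nt5e was split between the KO arrays, and Adk was level. Of the 5 measured members, 0 had a limma adjusted p under 0.05, against 0.00656% of all genes. At an unadjusted limma p under 0.05 there was 1 member, Entpd1, lower in KO, where 3.76% of all genes were lower, 6.32% higher and thus 10.1% in either direction. The KO and WT arrays did not overlap for 3 of the 5, Entpd1 and Dpp4 lower and Ada higher, where 17.5% of all genes were separated with KO lower, 20.9% with KO higher and 38.4% in one direction or the other. The median difference over the 5 members was -0.24 on the log2 scale, against 0.005 over all named genes. All 5 read above the median gene, so none sat at the dim end of the arrays.

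Entpd1 showed the clearest separation. Its log2 level was 8.87 and 8.15 in the 2 KO arrays, against 9.15 and 9.25 in the 2 WT arrays. Both KO arrays lay below both WT arrays, but the KO arrays were 0.72 apart, more than the 0.28 that separated KO replicate 1 from the nearer WT array. The means were 8.51 ± 0.51 in KO and 9.20 ± 0.07 in WT (SD, n = 2 each). The difference of -0.69 (SE 0.26) is a 0.620-fold level (95% interval 0.394 to 0.976), for which limma gave an adjusted p of 0.473 and an unadjusted p of 0.0423. Its absolute difference exceeded that of 98.3% of named genes. KO replicate 2 decided most of its size, since the difference was -0.33 without that array and -1.05 without KO replicate 1. Without either WT array the difference was -0.74 or -0.64. In bulk samples such as these, fewer cells that express a gene and less of its RNA per cell cannot be told apart.

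Nt5e, the next enzyme of the chain, was split between the KO arrays. Its log2 level was 11.48 and 9.89 in KO, against 11.21 and 11.33 in WT. KO replicate 1 was the highest of the 4 arrays and KO replicate 2 the lowest. The 2 KO arrays differed by 1.59, a 3.01-fold gap, which only 50 of the 30491 genes (0.164%) equalled or exceeded between these arrays, while the WT arrays differed by 0.12. The means were 10.69 ± 1.12 in KO and 11.27 ± 0.08 in WT (SD, n = 2 each). The difference of -0.585 (SE 0.51, limma adjusted p 0.783) had a 95% fold interval of 0.271 to 1.64, which holds lower and higher levels alike. Without KO replicate 2 it turned to 0.21, and without KO replicate 1 it was -1.38.

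**Figure D1:**
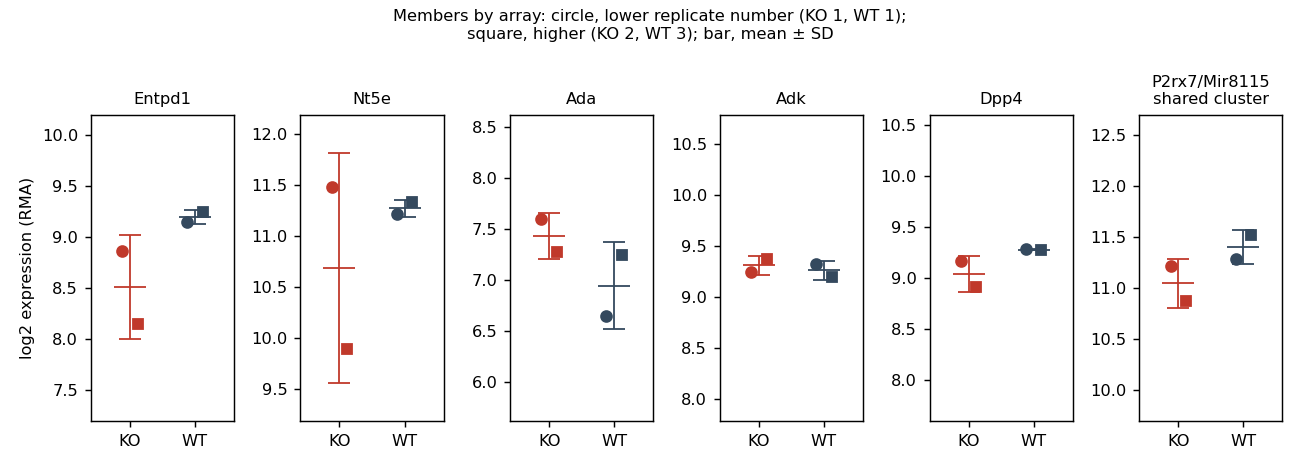
Log2 expression of the 5 measured members and of the cluster shared by P2rx7 and Mir8115, for KO on the left and WT on the right of each panel, each panel spanning the same log2 range; points are arrays and bars are the mean ± SD of 2 arrays. Entpd1 and Nt5e were both lowest in KO replicate 2, at 8.15 and 9.89, while Adk was level in all 4 arrays.

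Among the adenosine-consuming enzymes, Ada read higher in the KO arrays. Its log2 level was 7.59 and 7.27 in KO, against 6.64 and 7.24 in WT. The groups did not overlap, but KO replicate 2 and WT replicate 3 were 0.03 apart, and the spread within WT (0.60) was larger than that within KO (0.32). The means were 7.43 ± 0.23 in KO and 6.94 ± 0.42 in WT (SD, n = 2 each). The difference was 0.49 (SE 0.24), a 1.40-fold level (95% interval 0.919 to 2.15, limma adjusted p 0.580). It was 0.19 without WT replicate 1 and 0.79 without WT replicate 3, and 0.33 or 0.65 without KO replicate 1 or 2.

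Adk, the kinase that returns adenosine to AMP, did not separate the groups. Its log2 level was 9.25 and 9.38 in KO, against 9.33 and 9.20 in WT, so the ranges crossed. The difference was 0.05 (SE 0.13, limma adjusted p 0.948), and its 95% fold interval of 0.816 to 1.31 was narrower than those of Entpd1, Nt5e and Ada.

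Dpp4 read 9.16 and 8.91 in KO, against 9.28 and 9.27 in WT (log2 level). Both KO arrays lay below the WT pair, which differed by 0.01, and KO replicate 2 was again the lowest. The difference of -0.24 (SE 0.14) is a 0.847-fold level (95% interval 0.656 to 1.09, limma adjusted p 0.663). It was -0.115 without KO replicate 2 and was -0.365 without KO replicate 1.

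The cluster shared by P2rx7 and Mir8115 read 11.22 and 10.88 in KO, against 11.29 and 11.52 in WT (log2 level). The arrays did not overlap, with KO replicate 2 lowest. Of all named genes, 17.5% were separated with KO lower and 38.4% in one direction or the other, and no such share was computed over all clusters. KO replicate 1 and WT replicate 1 lay closer together than the replicates of either group. In the fit over all 65528 clusters its difference was -0.355 (SE 0.18), a 0.782-fold level, with a limma adjusted p of 0.635. This value is that of the cluster and is given to neither gene.

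**Figure D2:**
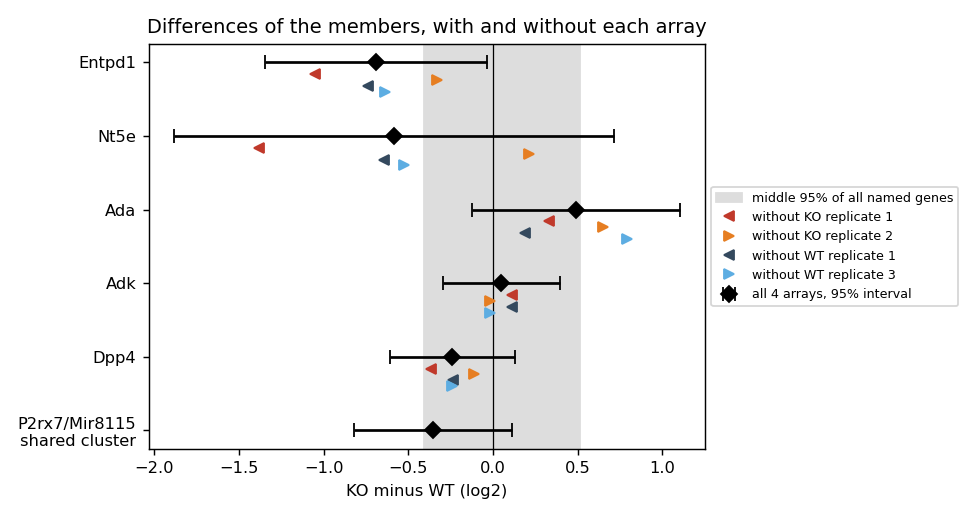
Difference between KO and WT on the log2 scale for the 5 members (limma, all named genes) and for the cluster shared by P2rx7 and Mir8115 (limma, all clusters); diamonds and lines are the estimate and its 95% interval, triangles the estimate with 1 array left out (members only), and grey the middle 95% of all named genes, from -0.41 to 0.515. The Nt5e triangles run from -1.38 to 0.21, whereas those of Entpd1 all lie below 0.

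KO replicate 2 alone was the lowest of the 4 arrays for 3 of the 5 members, Entpd1, Nt5e and Dpp4, where it was lowest for 20.9% of all named genes. The median gap between the KO arrays over all genes was 0.12, close to the 0.13 of the WT arrays, so the gaps of Entpd1 and Nt5e were not shared by the typical gene. A gap as large as that of Entpd1 was seen for 407 genes (1.33%). Lrrc32, which anchors latent TGF-beta on regulatory T cells, was also lowest in KO replicate 2, at 11.18 and 10.48 in KO against 12.05 and 12.28 in WT (log2 level). Gpr83, by contrast, was highest in KO replicate 2, at 12.51 and 12.74 in KO against 11.88 and 11.07 in WT. Il2ra read 15.01 and 14.99 in KO and 14.97 and 15.00 in WT.

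The 3 named protein-coding genes whose pattern over the 4 arrays was nearest to that of Entpd1 were Oas1a, Dipk1a and Abhd14b. The measure was the Euclidean distance between log2 values after each gene's own mean was subtracted, 0.0854, 0.0865 and 0.0887 in turn, among 17103 candidates. Oas1a, an interferon-induced oligoadenylate synthetase, read 8.16 and 7.36 in KO, against 8.39 and 8.57 in WT. With 4 arrays many genes can come this close, and the distances are a description.

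Markers of naive and effector T cells were set beside the members. Ccr7 and Lef1, which mark naive and central T cells, read above WT in both KO arrays, by 0.62 (SE 0.11) and 0.445 (SE 0.12). The effector marker Klrg1 read below WT in both, with a difference of -0.59 (SE 0.14), while Cd44 was higher by 0.505 (SE 0.13) and Icos, Itgae and Prdm1 lay between -0.11 and 0.065. None passed, with limma adjusted p from 0.295 to 0.976 for these 7 genes. The naive pair averaged 12.26 and 12.31 in KO and 11.72 and 11.79 in WT, so the 2 KO arrays lay close together, unlike for Entpd1 and Nt5e. The part of T cell subsets in the members' values was not tested.

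**Figure D3:**
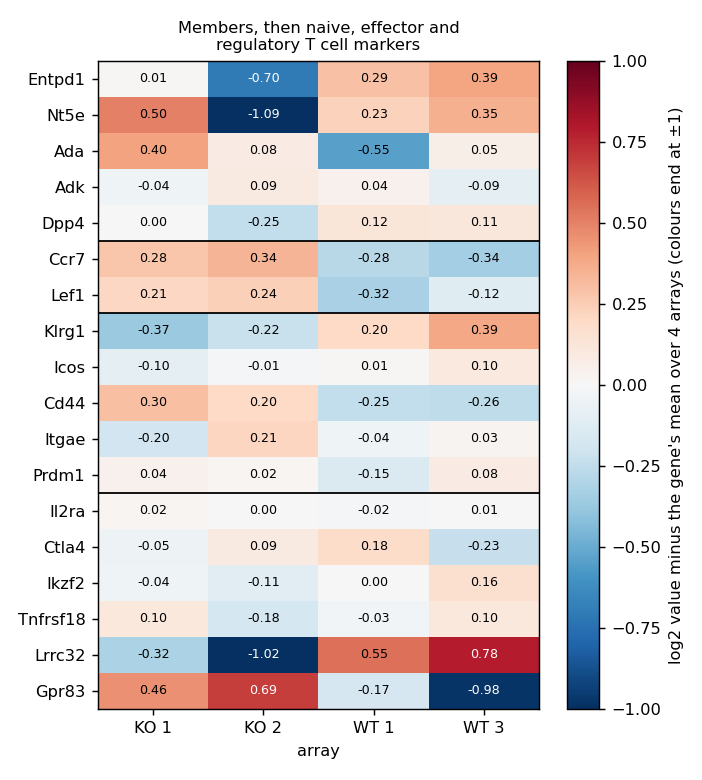
Log2 value of each gene minus its own mean over the 4 arrays, for the 5 members and then naive, effector and regulatory T cell markers; columns are KO replicates 1 and 2 and WT replicates 1 and 3, and colours end at 1 log2 unit. KO replicate 2 was lowest for Entpd1, Nt5e and Dpp4. Among the markers it was lowest for Lrrc32, Ikzf2 and Tnfrsf18, and not for Ccr7, Lef1, Gpr83 or the rest.

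The wider purinergic genes were examined as 8 lists with 78 entries, of which 69 were measured. Of these, 31 read higher and 38 lower in KO, with a median difference of -0.02, and 0 had a limma adjusted p under 0.05. An unadjusted limma p under 0.05 was reached by 7 genes, 3 higher and 4 lower, which is 10.1% of the measured genes, against 10.1% of all genes. The arrays did not overlap for 24 genes (34.8%), below the 38.4% of all genes. The first share was close to that of all genes and the second lay below it. Most genes named per list below were picked for the smallest p in each direction. Separated arrays or close replicates among them thus follow in part from that choice.

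The other ectoenzymes of the list were dim. All 6 measured members, including Entpd2, Entpd3 and Entpd8, read below the median gene, and their differences lay between -0.115 and 0.045. Enpp3, a nucleotide pyrophosphatase, had the smallest p on the lower side (-0.115, SE 0.08), followed by Entpd2 (-0.09, SE 0.10). On the higher side were Entpd3 (0.04, SE 0.07) and the alkaline phosphatase gene Alpl (0.045, SE 0.09). No value was available here for Art2b, the ADP-ribosyltransferase that can gate P2rx7 in mouse T cells, or for Cd38.

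Of 8 genes linked to ATP release, 3 read higher and 5 lower. Calhm6, a calcium homeostasis modulator whose family includes ATP-permeable channels, read 11.74 and 11.73 in KO, against 12.08 and 12.14 in WT (log2 level). The groups were well apart and the replicates close, with a difference of -0.375 (SE 0.11, limma adjusted p 0.384). Calhm2, of the same family, read 6.16 and 6.23 in KO, against 6.64 and 6.63 in WT, a difference of -0.44 (SE 0.11, limma adjusted p 0.354). Panx1, the pannexin channel through which T cells release ATP, was on the other side, with 10.22 and 10.47 in KO, against 9.98 and 10.15 in WT, a difference of 0.28 (SE 0.15, limma adjusted p 0.621). Gja1 differed by 0.045 (SE 0.10).

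The receptors for nucleotides were mostly dim: 5 of 6 P2X and 5 of 7 P2Y genes read below the median gene. Among P2X receptors 1 read higher, P2rx6 at 0.005 (SE 0.09), and 5 lower, led by P2rx5 (-0.165, SE 0.10) and P2rx4 (-0.20, SE 0.15). P2rx4, the P2X gene of the list above the median gene, read 7.80 and 7.59 in KO, against 7.99 and 7.80 in WT, so that the highest KO and the lowest WT array were level. Among P2Y receptors 3 read higher, led by P2ry2 (0.14, SE 0.11) and P2ry10 (0.13, SE 0.15), and 4 lower, led by P2ry6 (-0.10, SE 0.09) and P2ry12 (-0.07, SE 0.10). Adora3, the adenosine receptor measured here, was dim as well, with 4.51 and 4.51 in KO, against 4.66 and 4.58 in WT, a difference of -0.11 (SE 0.08, limma adjusted p 0.749).

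The nucleoside transporters, which carry adenosine across the membrane, read lower for 6 of 7 genes, where 14647 of all 30491 named genes read lower. Their median difference was -0.04, and 3 of the 7 read below the median gene. Some of the lower differences were small, such as -0.015 (SE 0.08) for Slc28a3 and -0.02 (SE 0.24) for Slc29a3. Slc28a2, a concentrating transporter that prefers purine nucleosides, read 10.76 and 10.69 in KO, against 11.10 and 11.07 in WT (log2 level). The groups were further apart than the replicates, with a difference of -0.36 (SE 0.12, limma adjusted p 0.425). Slc29a1, the equilibrative transporter ENT1, differed by -0.29 (SE 0.17, limma adjusted p 0.645), with 7.62 and 7.28 in KO, against 7.83 and 7.65 in WT, and Slc29a2 by 0.03 (SE 0.13).

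**Figure D4:**
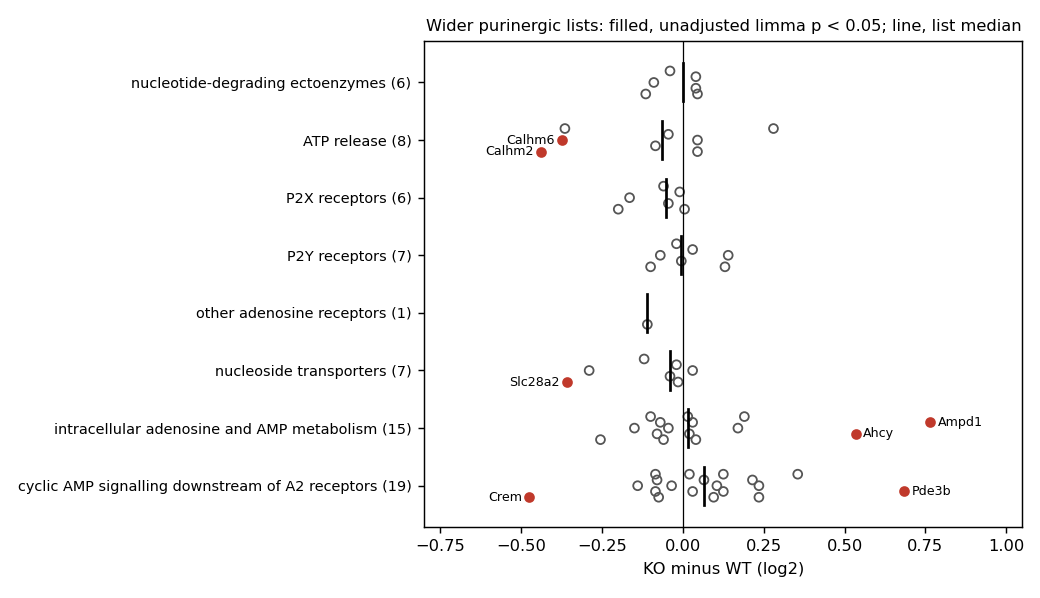
Difference between KO and WT on the log2 scale for each measured gene of the 8 wider lists (number of genes in parentheses); filled points had an unadjusted limma p under 0.05, none passed after adjustment, and black lines mark list medians. The list medians lie between -0.11 and 0.065, and the 7 filled points fall on both sides of 0.

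Inside the cell, 15 genes of adenosine and AMP metabolism split into 8 higher and 7 lower, with a median difference of 0.015. Ampd1, which deaminates AMP to IMP, read 6.25 and 6.87 in KO, against 5.68 and 5.91 in WT, a difference of 0.765 (SE 0.23, limma adjusted p 0.398). Ahcy, which splits S-adenosylhomocysteine into adenosine and homocysteine, differed by 0.535 (SE 0.13, limma adjusted p 0.339). That value came from the brighter of 2 clusters, and the other gave 0.275 (SE 0.15) in the fit over all clusters. Their identifiers name different chromosomes while RefSeq places Ahcy on chromosome 2, so the Ahcy value is uncertain, and whether the brighter cluster holds a near-identical copy was not tested. Pnp, the phosphorylase that takes inosine onward after Ada, differed by -0.255 (SE 0.17) and Ampd3 by -0.15 (SE 0.14).

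Of 19 genes of the cyclic AMP pathway that adenosine receptors feed, 12 read higher and 7 lower, with a median difference of 0.065. Crem, a cyclic AMP-responsive transcription factor gene that the pathway itself induces, read 7.61 and 7.63 in KO, against 7.90 and 8.29 in WT. Its difference was -0.475 (SE 0.17, limma adjusted p 0.454). Pde3b, a phosphodiesterase that breaks cyclic AMP down, read 6.64 and 5.92 in KO, against 5.49 and 5.70 in WT, a difference of 0.685 (SE 0.25, limma adjusted p 0.470). The groups did not overlap for either gene, which held for 8 of the 19 genes in the list and for 38.4% of all genes. Gnas, the stimulatory G protein subunit, differed by 0.235 (SE 0.12), and Adcy3, an adenylyl cyclase, by -0.14 (SE 0.14).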

How the data were processed

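The deposited file is 1 table of the authors' log2 values, 65528 transcript clusters by 4 arrays. It was made with Transcriptome Analysis Console and RMA (robust multi-array averaging), per the submitters' processing notes, which name neither version nor order. The base of 2 follows RMA's convention and a range from 1.82 to 19.38. The sources used here do not give the background handling, the genome build or the annotation version.

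Through the platform annotation, 31038 clusters had 1 gene symbol after synonyms were merged, 1479 had several and gave no gene a value, and 33011 were not listed. Symbols were updated through the RefSeq table of GRCm38.p6. The brightest cluster stood for a gene, leaving 30491 genes. KO minus WT was tested with limma 3.58.1 in R 4.3.3 (lmFit, eBayes with intensity trend, two-sided, no filter), and Benjamini-Hochberg adjustment covered all genes at a threshold of 0.05. An exact test of 2 arrays against 2 cannot give a p below 0.333. The procedure was tested on data simulated with independent normal noise, a setting that these arrays need not share. Fold values are powers of 2 of the differences. No batch could be tested, since the labels name none.

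The members, the gene lists and the markers were chosen with earlier results of these data known. Named by rule are all members, per wider list the 2 genes of smallest p in each direction, the 3 genes nearest to Entpd1 in pattern, and Bmi1. Entpd8, Slc28a3 and Slc29a3, cell type markers and genes without a value were named outside this rule. The alternatives were other normalizations, a filter on dim genes, other cluster rules, other variance settings and leaving out each array.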

Additional observations from a re-analysis of the deposited data

How the results depend on the processing

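Over 11 alternatives the 5 members gave 55 comparisons, none of them past the threshold (limma adjusted p from 0.323 to 0.989 over all 55). Of these, 52 kept their direction and 3 turned. Many could not turn. The filter on dim genes, the other cluster rules and the other variance settings leave a member's difference as it is, since each member has 1 cluster. A direction could change only under another normalization or with 1 array left out, so the count of 52 is no measure of stability. Nt5e ranged from -1.38 to 0.21 with 1 array left out, and turned without KO replicate 2. Adk ranged from -0.015 to 0.115 and turned without KO replicate 2 and without WT replicate 3 (-0.015 both times). With 1 array left out, Entpd1 ranged from -1.05 to -0.33, Ada from 0.19 to 0.79 and Dpp4 from -0.365 to -0.115. Of the 7 alternatives that kept all arrays, only the other normalizations could move Entpd1. It was -0.665 after median-centring and -0.64 after a further quantile normalization, and the rest returned -0.69 by construction.

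The count of members at an unadjusted limma p under 0.05, 1 as reported, was 0 after median-centring and over all clusters as features, and 0 to 2 with 1 array left out (2 without KO replicate 1, 0 without KO replicate 2 or WT replicate 1). The count of all genes past the adjusted threshold, 2 as reported, was 1 after median-centring, 0 after a further quantile normalization, 13 among the 15251 genes at or above the median gene, 4 over all clusters, 0 without an intensity trend, 0 with robust settings, and 0 whichever array was left out. With 1 array left out, the lone array is assumed to vary like the others. The cause of these changes was not tested. No paired analysis was possible because the groups share only 1 replicate number. The table carries no detection call or background, so differences of dim genes may be understated.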
